A study of Mus musculus with 4 samples.

Results

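The crystallins described here are the 10 genes Cryaa, Cryab, Cryba1, Cryba2, Cryba4, Crybb1, Crybb2, Crybb3, Crygs and Crygn, out of 22863 genes with a value in the deposited table. Each was found by its exact symbol, each had a single row, and 10 of the 10 passed the filter on low values (at least 10 in at least 2 samples) that left 17784 genes. The genes were chosen on the values in these samples, in view of the large difference between the samples numbered 1 and 2 and of the comparison of conditions, so the differences between samples are given for them as a description, with standard errors and without p-values.

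RNA was sequenced from the eyes of C3H/f+/+ mice, a melatonin-proficient line without the Pde6b mutation that causes retinal degeneration in other C3H mice, raised in a light-dark cycle with 12 hours of each phase. Subjective day mice had spent 18 hours in darkness by the methods of the study, which gives a longer time elsewhere for an eye recording experiment, and were sampled at circadian time (CT) 6, whereas objective day mice had seen morning light, spent 1 hour in darkness and were sampled at zeitgeber time (ZT) 6, and there were 2 samples of each condition. Each sample pooled the 4 eyes of a female and a male and consisted of retina, RPE (retinal pigmented epithelium), choroid and posterior sclera after the front of the eye had been cut away with the lens. Ages are not given in the sources used here for these samples. The samples of each condition carry the numbers 1 and 2 in their titles, which the labels do not tie to a day, a litter or a batch. Values are given in the order of these numbers within each condition.

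Crystallins are the proteins that fill the fibre cells of the lens and give it its refractive power. The alpha-crystallins are small heat shock proteins that keep other proteins from aggregating, whereas the beta- and gamma-crystallins share a compact, very stable fold and serve mainly as structural proteins. In the lens, the gamma-crystallins of the Cryga to Crygf cluster are made in elongating fibre cells, and several alpha- and beta-crystallins are also known from the retina and RPE, where their levels respond to stress and injury.

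The summed values of the samples lay between 33278400 and 35236800, and totals as nearly equal as these do not show depth. The lowest step in the values gave a rough relative depth of the samples, between 89.1% and 107% of their mean. Markers of the labelled tissue were present, among them Rgr of the RPE at values from 24591 to 29257, the rod gene Gnat1 from 584720 to 761670 and the Müller glia gene Glul from 68629 to 76479, whereas Best1 of the RPE was at 0 in the first subjective day sample and at 9.70 at most. Lens genes were present too, although the lens had been removed, and at very unequal levels: Bfsp1, an intermediate filament protein of lens fibres, had values of 1536 and 43.4 in the subjective day samples and 794 and 53.2 in the objective day samples. Because the tissue was measured in bulk, fewer cells of a type and less RNA per cell cannot be told apart.

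The promoters of crystallin genes are known to be short and to be read by lens transcription factors of the Maf family, which bind sites built around the letters TGCTGA. The promoters shown were taken because their genes span the range of behaviour described below, from Crygb, with a difference of over 100-fold between the samples of each condition, to Crygn, with one of 2.58-fold at most. Each line gives the 250 bases before the transcription start in the direction of the gene, from RefSeq on GRCm38.p6, and capitals mark TGCTGA or its reverse complement TCAGCA anywhere in the window and TATAAA or TATATA, the letters of a TATA box, on the gene's strand in the last 50 bases.
Crygb, minus strand, chr1:65082291-65082540: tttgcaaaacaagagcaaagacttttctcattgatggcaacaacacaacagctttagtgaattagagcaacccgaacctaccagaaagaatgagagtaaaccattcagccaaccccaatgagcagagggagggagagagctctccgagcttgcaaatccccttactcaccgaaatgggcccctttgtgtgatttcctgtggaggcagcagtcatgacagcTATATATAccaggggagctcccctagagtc
Crybb1, plus strand, chr5:112255570-112255819: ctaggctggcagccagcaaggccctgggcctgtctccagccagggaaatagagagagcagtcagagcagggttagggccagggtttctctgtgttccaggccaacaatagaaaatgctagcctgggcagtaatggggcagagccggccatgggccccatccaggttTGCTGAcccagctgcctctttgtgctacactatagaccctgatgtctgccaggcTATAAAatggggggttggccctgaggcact
Cryba1, minus strand, chr11:77725294-77725543: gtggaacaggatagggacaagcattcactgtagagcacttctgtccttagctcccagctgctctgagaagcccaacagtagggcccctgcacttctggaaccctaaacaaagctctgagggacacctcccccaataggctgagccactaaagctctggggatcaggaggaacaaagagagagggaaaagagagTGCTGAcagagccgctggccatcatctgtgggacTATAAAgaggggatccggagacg
Cryaa, plus strand, chr17:31677681-31677930: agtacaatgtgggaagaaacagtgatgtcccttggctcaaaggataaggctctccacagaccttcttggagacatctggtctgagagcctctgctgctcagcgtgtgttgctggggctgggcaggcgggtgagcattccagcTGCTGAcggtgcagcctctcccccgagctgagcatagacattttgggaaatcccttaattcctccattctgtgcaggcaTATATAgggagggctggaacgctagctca
Crygn, minus strand, chr5:24757849-24758098: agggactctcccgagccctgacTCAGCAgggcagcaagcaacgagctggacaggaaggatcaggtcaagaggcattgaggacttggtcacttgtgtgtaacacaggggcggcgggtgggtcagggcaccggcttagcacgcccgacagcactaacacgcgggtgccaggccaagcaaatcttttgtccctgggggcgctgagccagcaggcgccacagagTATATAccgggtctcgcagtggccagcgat

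Of the 10 crystallins, 9 were matched in the promoter table, all but Cryab. TGCTGA on either strand was found in 8 of the 9, the exception being Crybb2, compared with 16.1% of all 32851 promoters. Letters of a TATA box were found in 5 of the 9, in Cryaa, Cryba1, Crybb1, Crygs and Crygn, compared with 3.7% of all promoters. In the Cryga to Crygf cluster, 6 of 6 promoters held TATA box letters and 2 of 6 held TGCTGA, in Cryga and Crygc. These are matches of letters and not measured binding.

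The 10 genes lie on 6 chromosomes of GRCm38, in GENCODE release M21. Cryba4 (chromosome 5, 112246493 to 112252518, minus strand) and Crybb1 (112255815 to 112269585, plus strand) stand head to head with 3296 bases between them, and Crybb2 (113058258 to 113070117) and Crybb3 (113075839 to 113081584) follow each other on the minus strand with 5721 bases between them. Crygn is also on chromosome 5 (24751003 to 24758008), Cryaa is on chromosome 17 (31677807 to 31681733), Cryab on chromosome 9 (50751325 to 50756636), Cryba1 on chromosome 11 (77718615 to 77725283), Cryba2 on chromosome 1 (74889934 to 74893143) and Crygs on chromosome 16 (22805203 to 22811577). Reads were 50 bases long, and for 8 of the 10 no stretch of 50 bases in their transcripts was found in transcripts of another gene. The exceptions were Cryaa, which shares 8.37% of such stretches with the opposite-strand gene AC090881.2, and Cryab, which shares 13.3% with its opposite-strand neighbour Hspb2, so that without a stated strand setting some of their reads are uncertain.

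Cryaa encodes alpha A-crystallin, the alpha-crystallin that is largely particular to the lens. Its values were 28080 and 4082 in the subjective day samples and 36436 and 9885 in the objective day samples. The samples numbered 1 were high and those numbered 2 were low in both conditions, by 6.88-fold in subjective day and by 3.69-fold in objective day, while the conditions overlapped. Cryab encodes alpha B-crystallin, a stress-induced chaperone that is also abundant in muscle, glia and other cells. The values of Cryab were 8923 and 4013 in subjective and 12558 and 5700 in objective day. The same samples were high, but the fold between them was smaller and nearly equal in the conditions, 2.22 in subjective day and 2.20 in objective day.

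Cryba1, which gives rise to both beta A3- and beta A1-crystallin from alternative start codons, had values of 6338 and 658 in subjective and 5816 and 1307 in objective day. Cryba2 encodes another acidic beta-crystallin and had values of 2268 and 265 in subjective and 2473 and 644 in objective day. The acidic beta-crystallin gene Cryba4 had values of 2391 and 145 in subjective and 1867 and 383 in objective day, with folds between samples of 16.5 and 4.88, the widest among the 10 genes in each condition. In these acidic members the samples numbered 1 of the conditions lay close together, and the second subjective day sample was the lowest of the samples.

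The basic beta-crystallins showed the same order of samples. Crybb2, which encodes the major beta-crystallin of the mature lens, had values of 12426 and 1007 in subjective and 11544 and 2433 in objective day. Crybb1, a beta-crystallin of fibre cells, had values of 1180 and 114 in subjective and 889 and 231 in objective day, and Crybb3 had values of 1899 and 170 in subjective and 1578 and 350 in objective day. For the 6 beta-crystallins together, the samples numbered 1 exceeded those numbered 2 by 8.55- to 16.5-fold in subjective day and by 3.84- to 4.88-fold in objective day.

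Crygs encodes gamma S-crystallin, a gamma-crystallin of the lens cortex that lies outside the cluster of the other gamma genes. Its values were 2428 and 180 in subjective and 2024 and 465 in objective day, close in pattern to the beta-crystallins. Crygn encodes gamma N-crystallin, whose structure lies between the beta and gamma families. Crygn was the weakest of the 10 genes, with values of 58.9 and 22.8 in subjective and 99.8 and 40.7 in objective day. Its samples numbered 1 were higher by 2.58- and 2.45-fold, nearer to Cryab than to Crygs.

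**Figure D1:**
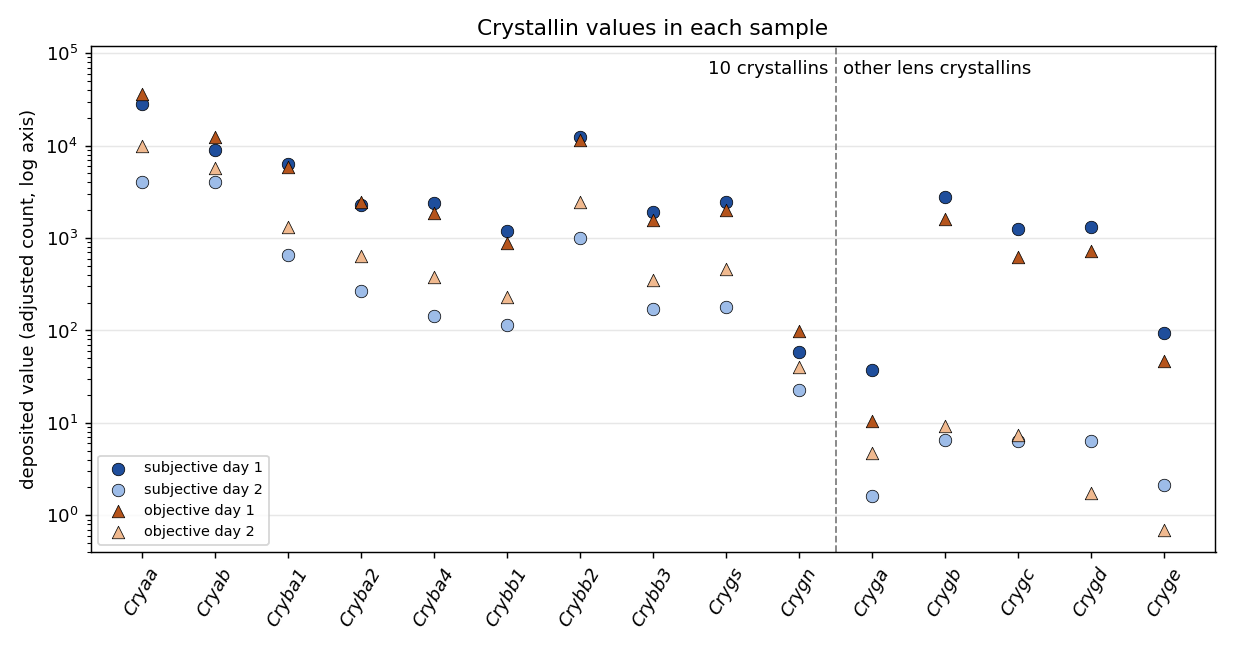
Deposited value (adjusted count, log axis) of the 10 crystallins and of 5 further lens crystallins in each of the 4 samples, circles for subjective day and triangles for objective day, dark for samples numbered 1 and pale for samples numbered 2. In all 15 genes the dark points lie above the pale points, by about 2-fold in Cryab and by more than 100-fold in Crygb.

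The samples numbered 1 did not overlap those numbered 2 in 10 of the 10 crystallins, and 10 of 10 were higher in number 1. Among all genes tested, the numbers did not overlap in 28.6%, with 15.7% higher in number 1. A difference of at least 2-fold (on log2(value + 1)) in both conditions was seen in 32 genes, or 0.18% of all tested, and 10 of the 32 were the crystallins described here. A further 0.27% of genes were lower in number 1 by that much. On the log2(value + 1) scale, with the condition as a term in limma's linear model, the differences between numbers 1 and 2 ran from 1.15 (SE 0.043) for Cryab and 1.30 (SE 0.21) for Crygn, through 2.33 (SE 0.17) for Cryaa, to 3.16 (SE 0.32) for Cryba4. The median was 2.68 over the 10 genes and 0.018 over all genes tested. In that fit 9 of the 10, all but Crygn, had an adjusted p under 0.05, compared with 0.112% of all genes called, 0.107% higher and 0.00562% lower in number 1. The crystallins had been chosen with this difference known, so nothing is read from that count.

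Per kilobase of the longest coding transcript, Cryaa had the highest level of the 10 genes in 3 of the 4 samples, with values per kilobase of 22180 in the first subjective day sample and 28780 and 7808 in the objective day samples. In the second subjective day sample Cryab was first, at 3593 per kilobase against 3224 for Cryaa. Crybb2 was the highest beta-crystallin in each sample on this scale, at 13715 and 1111 per kilobase in subjective and 12742 and 2685 in objective day, and Crygn was the lowest of the 10 in each sample, between 29.7 and 130. With the length of all annotated exons as the divisor, the places of Cryaa and Crygn were kept, and those of several beta-crystallins were exchanged. The ranges over the 4 samples overlapped between neighbours in this order. Within the samples, Crybb2 was above Cryba1 in 4 of the 4 with either divisor.

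The 10 crystallins made up 0.187% and 0.0306% of the summed values in subjective and 0.216% and 0.0644% in objective day. Cryaa took between 38.3% and 48.4% of the crystallin total. The share of Cryab differed most, at 13.5% and 16.7% in the samples numbered 1 and 37.7% and 26.6% in those numbered 2. Crystallin values were therefore also set against Crybb2 in the same sample, which needs no scaling between samples. Crygs stood at 19.5% and 17.9% of Crybb2 in subjective and at 17.5% and 19.1% in objective day. Crybb3 lay between 13.7% and 16.9% of Crybb2, Cryba4 between 14.4% and 19.2%, Crybb1 between 7.70% and 11.4%, and Cryba1 between 50.4% and 65.3%. These genes thus kept within narrow ratios of each other while their own values moved by 3.84-fold or more between the samples of a condition. Cryab did not follow: it stood at 71.8% and 399% of Crybb2 in subjective and at 109% and 234% in objective day. Cryaa stood at 226% and 405% in subjective and at 316% and 406% in objective day, and Crygn at 0.474% and 2.27% in subjective and 0.865% and 1.67% in objective day. Cryba2 stood at 18.2% and 26.3% in subjective and at 21.4% and 26.5% in objective day. The ratio was higher in both samples numbered 2, without overlap, for Cryab, Cryaa, Crygn, Cryba2, Cryba1 and, by a very narrow margin, Crybb1. With 2 values against 2, an exact permutation test of a ratio (two-sided) cannot go below p = 0.333, so these ratios carry no test.

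**Figure D2:**
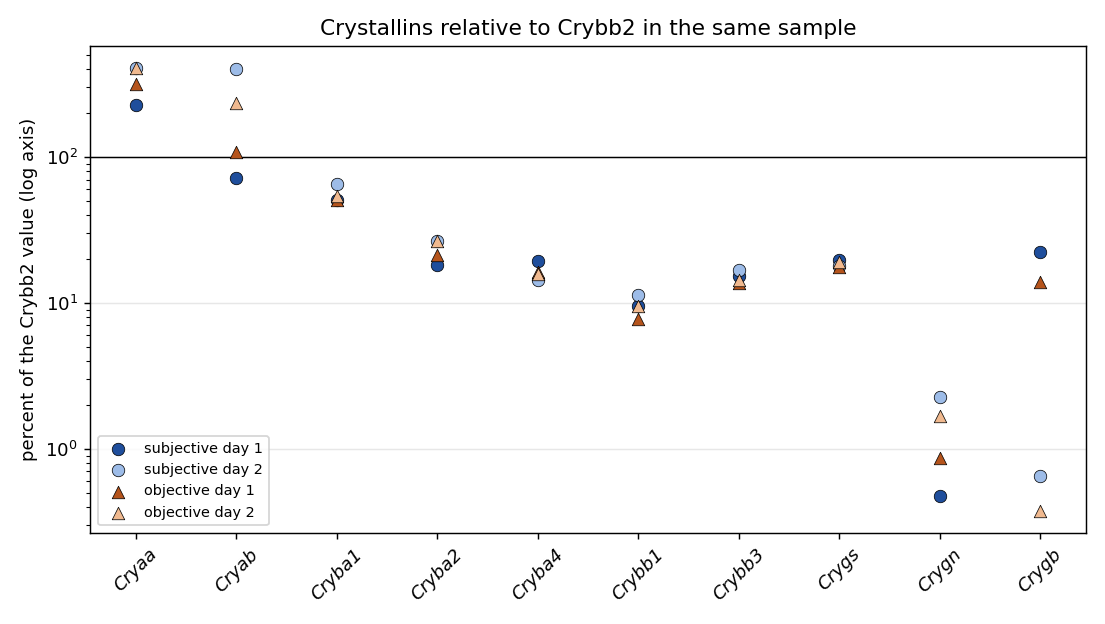
Value of each crystallin as a percent of the Crybb2 value in the same sample (log axis), 1 point per sample, with the line at 100% marking Crybb2 itself. The points of Crygs, Crybb3, Cryba4, Cryba1, Cryba2 and Crybb1 lie close together, those of Cryab and Crygn lie far apart with the pale samples numbered 2 on the higher side, and Crygb is far lower there.

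The crystallins of the fibre cell cluster on chromosome 1, which are not among the 10 genes, were compared as the nearest relatives. Cryga, Crygb, Crygc, Crygd and Cryge passed the filter, through their values in samples numbered 1, while the values of Crygf were not analysed here. Crygb had values of 2781 and 6.59 in subjective and 1617 and 9.19 in objective day, so that the samples numbered 1 exceeded those numbered 2 by 422-fold and 176-fold. Crygc had values of 1239 and 6.31 in subjective and 619 and 7.47 in objective day. Crygd had values of 1322 and 6.34 in subjective and 726 and 1.75 in objective day. Their transcripts were thus abundant in the samples numbered 1 and close to the lower end of the scale in those numbered 2, where the beta-crystallins still had values of 114 or more. Of Crybb2, Crygb was 22.4% and 14.0% in the samples numbered 1 of subjective and objective day and 0.654% and 0.378% in those numbered 2. As these 5 genes had passed the filter through the samples numbered 1 alone, a difference between numbers was fixed by the filter and is given with no test. Between 19.7% and 48.3% of the 50-base stretches of these 5 genes occur in other genes, including each other and the overlapping gene Gm28845, so the division of reads among them is uncertain.

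Other lens genes followed the same order of samples. Of 8 lens structure genes that passed the filter, 8 were higher in number 1 in each condition by at least 2-fold on log2(value + 1), and limma's test called 4, beside 0.107% of all genes called higher in number 1. These were Bfsp1 (log2 difference 4.49, SE 0.25, adjusted p = 0.000352), Lctl (3.27, SE 0.23, adjusted p = 0.00168) and Bfsp2 (1.91, SE 0.23, adjusted p = 0.0312), beside Lgsn, which met the filter with the help of the samples numbered 1 and is given with no p. Lgsn encodes lengsin, a fibre cell protein related to glutamine synthetase, and had values of 391 and 11.3 in subjective and 161 and 7.91 in objective day. Lctl, a klotho-related gene known from lens suture formation, had values of 207 and 16.3 in subjective and 164 and 20.3 in objective day. The other 4 lens structure genes did not pass, with log2 differences of 2.54 for Mip, the water channel of lens fibres, 2.77 for Grifin, 1.62 for Gja3 and 2.29 for Birc7, of which Birc7 had passed the filter through the samples numbered 1 alone. The 4 calls were lost without the condition term and with a constant variance prior, where 0 lens structure genes passed. With the scaling without lens genes or the GC trend removed, 12 of the 13 lens crystallins and structure genes passed. The 13 include Cryga, Crygb, Crygc, Crygd, Cryge and Birc7, which passed the filter through the samples numbered 1 alone, and Lgsn. Nothing is therefore read from that count. Lim2 and Dnase2b did not pass the filter, with highest values of 4.0 and 34.0, and Lenep was not analysed here.

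The genes with the pattern nearest to the crystallins were sought over all genes that passed the filter, by the root mean square difference from the median crystallin deviation over the 4 samples on log2(value + 1). The 10 nearest non-members were Grifin, Lctl, Mip, Bfsp2, Cryga, Wnt7a, Gja3, Gpr65, Wnt7b and Birc7, at distances from 0.332 to 0.715. Of the 10 crystallins, Cryba1 was nearest to that median at 0.0413 and Cryab farthest at 0.847, with Crygn at 0.787. Wnt7a and Wnt7b encode secreted signalling proteins, and Wnt7b had values of 120 and 36.7 in subjective and 144 and 71.3 in objective day, whereas Wnt7a had values of 19.0 and 4.73 in subjective and 37.2 and 9.33 in objective day. Gpr65, a proton-sensing receptor of immune cells, had values of 14.0 at most and is close to the filter. Wnt7a and Gpr65, like Cryga and Birc7, passed the filter through the samples numbered 1 alone.

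Genes that share only the crystallin name or the chaperone family were examined beside them. Of 7 genes named after crystallins but outside the alpha, beta and gamma families, among them the thyroid hormone-binding Crym and the quinone reductase Cryz, 0 passed limma's test between numbers in either direction, and 0 of the 7 had an unadjusted p under 0.05, which 2673 of the 17784 genes had. Between conditions 0 of the 7 passed and 1, Cryzl1, had an unadjusted p under 0.05. Crym had values of 1037 and 922 in subjective and 899 and 929 in objective day, with a log2 difference between numbers of 0.060 (SE 0.073). Of 6 other small heat shock proteins, relatives of the alpha-crystallins, 0 passed the test between numbers and 2 had an unadjusted p under 0.05. Hspb2, which shares its upstream region with Cryab, had values of 65.9 and 70.8 in subjective and 65.2 and 71.8 in objective day, with a log2 difference between numbers of -0.12 (SE 0.19), beside 1.15 (SE 0.043) for Cryab. The difference between these lists and the crystallins was not itself tested.

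**Figure D3:**
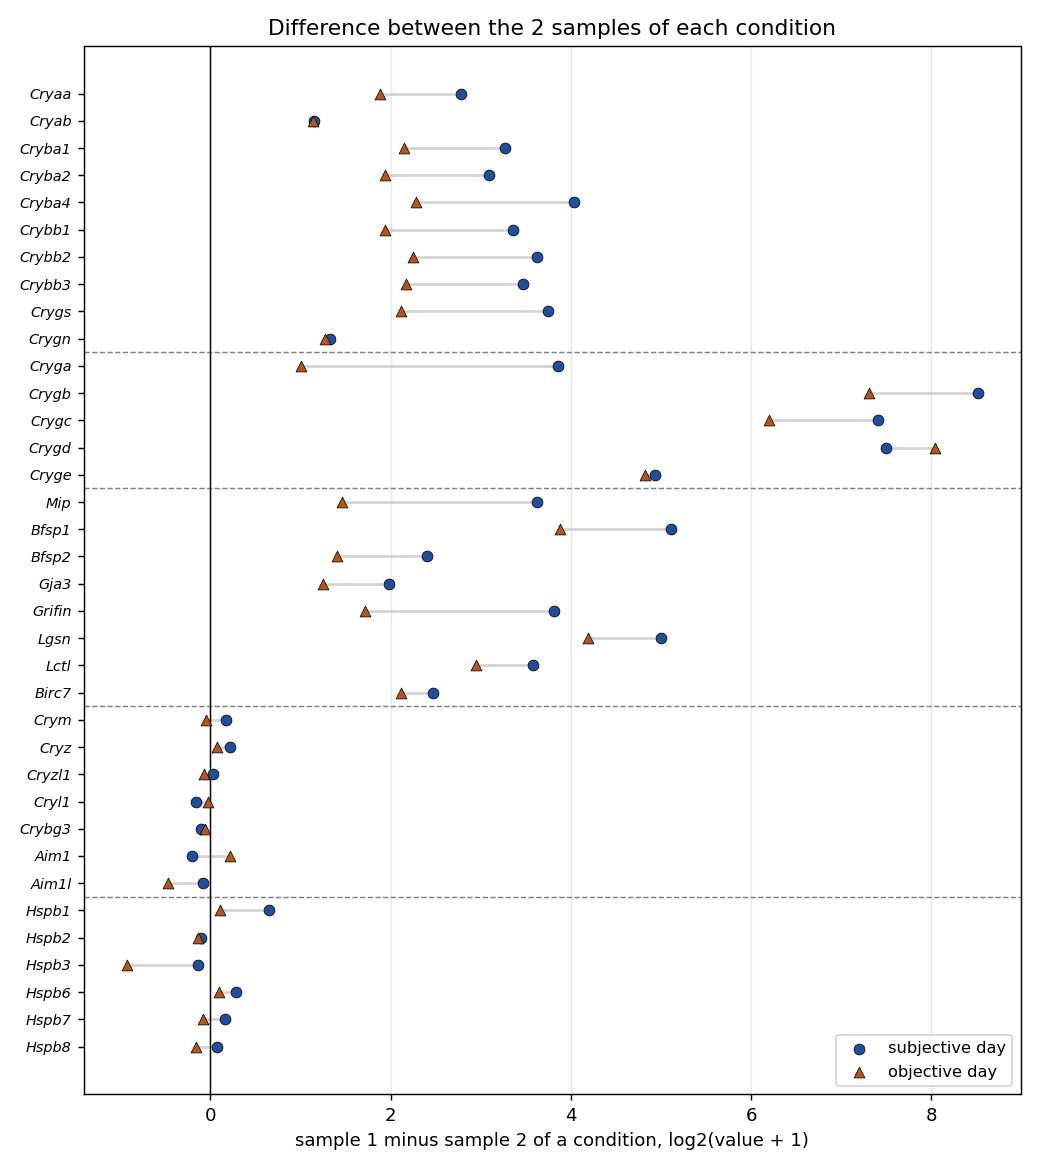
Difference between sample 1 and sample 2 of each condition on log2(value + 1), circles for subjective day and triangles for objective day, for the 10 crystallins, the other lens crystallins, lens structure genes, other crystallin-named genes and other small heat shock proteins, separated by dashed lines from top to bottom. The first 3 groups lie to the right of 0 in both conditions, from 1.00 for Cryga in objective day to 8.52 for Crygb in subjective day, and the last 2 groups lie around 0.

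Transcription factors and other regulators known from the lens, several of which act on crystallin promoters, were measured in the same samples. Of 10 such genes, 0 passed limma's test between numbers and 3 had an unadjusted p under 0.05. Maf had values of 1128 and 1022 in subjective and 1127 and 908 in objective day, Pax6 of 9833 and 9524 and of 10279 and 9967, and Prox1 of 6648 and 6815 and of 6838 and 6478. Pax6 and Prox1 are also expressed in retinal neurons. Hsf4 ranged from 269 to 327, Mafg from 2226 to 2650, Six3 from 3948 to 4582, Tdrd7 from 11622 to 12631, Sox1 from 13.3 to 23.0 and Pitx3 from 19.1 to 49.2. Foxe3, a transcription factor of the lens epithelium, was the exception in size, with values of 12.0 and 4.61 in subjective and 58.1 and 22.7 in objective day and a log2 difference between numbers of 1.27 (SE 0.32, adjusted p = 0.173).

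The study asked whether the regeneration of visual pigment follows the circadian clock or light, and the RNA comparison set eyes that had seen light that day against eyes that had not. There the values of the crystallins overlapped between the conditions. The mean of Cryaa was 16081 ± 16970 (SD, n = 2) in subjective and 23160 ± 18775 (SD, n = 2) in objective day, that of Crybb2 was 6716 ± 8075 (SD, n = 2) and 6988 ± 6443 (SD, n = 2), and that of Cryab was 6468 ± 3472 (SD, n = 2) and 9129 ± 4849 (SD, n = 2). The spread within a condition exceeded the difference between the conditions for each of these. The conditions overlapped in 10 of the 10 crystallins, whereas they did not overlap in 56.1% of all genes tested, with 27.9% higher in objective day. Limma's test called 0 of the 10, compared with 8.51% of all genes called, 7.45% lower and 1.06% higher in objective day. An unadjusted p under 0.05 was found in 0 of the 10 and in 4512 of the 17784 genes tested. With the sample number as a term, 3 of the 10, Cryaa, Cryab and Crygn, passed, as did 3613 of the 17784 genes tested. As the crystallins had been chosen with these values known, nothing is read from either count. The log2 differences, objective minus subjective day, ran from 0.30 (SE 1.02) for Crybb1 to 0.83 (SE 0.88) for Cryaa, with a median of 0.54 over the 10 genes and 0.015 over all genes tested. These values rest on which samples are used: leaving out the second subjective day sample gave a median of -1.21, leaving out the first gave 2.17, and without the first or the second objective day sample it was -0.52 or 1.56.

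The conditions were also compared within the samples of a number, where each comparison has 1 sample a condition and no replicate check. Among the samples numbered 2, 10 of the 10 crystallins were higher in objective day, by 1.42-fold for Cryab to 2.65-fold for Cryba4, compared with 52.6% of all genes. Of the 10, 9 were higher by at least 1.5-fold, compared with 2.94% of all genes. The crystallins had been chosen with these values known and vary together across samples, so nothing is read from the counts of this comparison. Among the samples numbered 1, 4 of the 10 were higher in objective day, compared with 49.9% of all genes. These 4 were Cryaa (1.30-fold), Cryab (1.41-fold), Cryba2 (1.09-fold) and Crygn (1.69-fold), and the other 6 were at 0.753- to 0.929-fold. Cryab and Crygn had nearly the same fold in both numbers, Cryab 1.41 and 1.42 and Crygn 1.69 and 1.78, whereas the beta-crystallins and Crygs went from 0.753- to 1.09-fold in number 1 to 1.99- to 2.65-fold in number 2. Whether the condition difference itself differed between numbers could not be tested, since a model with both terms and their interaction leaves no degrees of freedom.

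Among the other lens genes, limma's test called 0 of the 5 other lens crystallins and 0 of the 8 lens structure genes between the conditions, with an unadjusted p under 0.05 in 0 of either list. With the sample number as a term, 3 of these 13 genes passed, Gja3 higher and Lgsn and Crygd lower in objective day, beside the 8.51% of all genes called without that term and the 3613 genes called with it. The values of Crygd in the samples numbered 2, 6.34 in subjective and 1.75 in objective day, are close to the lower end of the scale. Of its 50-base stretches, 19.7% occur in other genes. The regulator Foxe3 was higher in both objective day samples, by 4.84- and 4.92-fold within the numbers (log2 difference 2.13, SE 0.57). It met the filter with the help of the objective day samples and is given with no p. Of the 10 lens regulators limma's test called 0 between the conditions. Foxe3 passed with the sample number as a term, as did 3613 of the 17784 genes tested. In contrast, Lgsn was lower in objective day within each number, at 0.412- and 0.701-fold. In the samples numbered 1, Cryga was at 0.283-fold and Crygb, Crygc, Crygd and Cryge were at 0.494- to 0.581-fold. In those numbered 2, Crygb and Crygc were at 1.40- and 1.18-fold. The log2(value + 1) differences there were 1.12 for Cryga, -1.42 for Crygd and -0.886 for Cryge, from very low values. The values of lens genes thus did not share a direction between the conditions. In the list of small heat shock proteins, 1 gene passed the test: Hspb6, which is abundant in muscle, had values of 5495 and 4497 in subjective and 7325 and 6832 in objective day (log2 difference 0.51, SE 0.098, adjusted p = 0.0223), against 1.06% of all genes called higher.

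**Figure D4:**
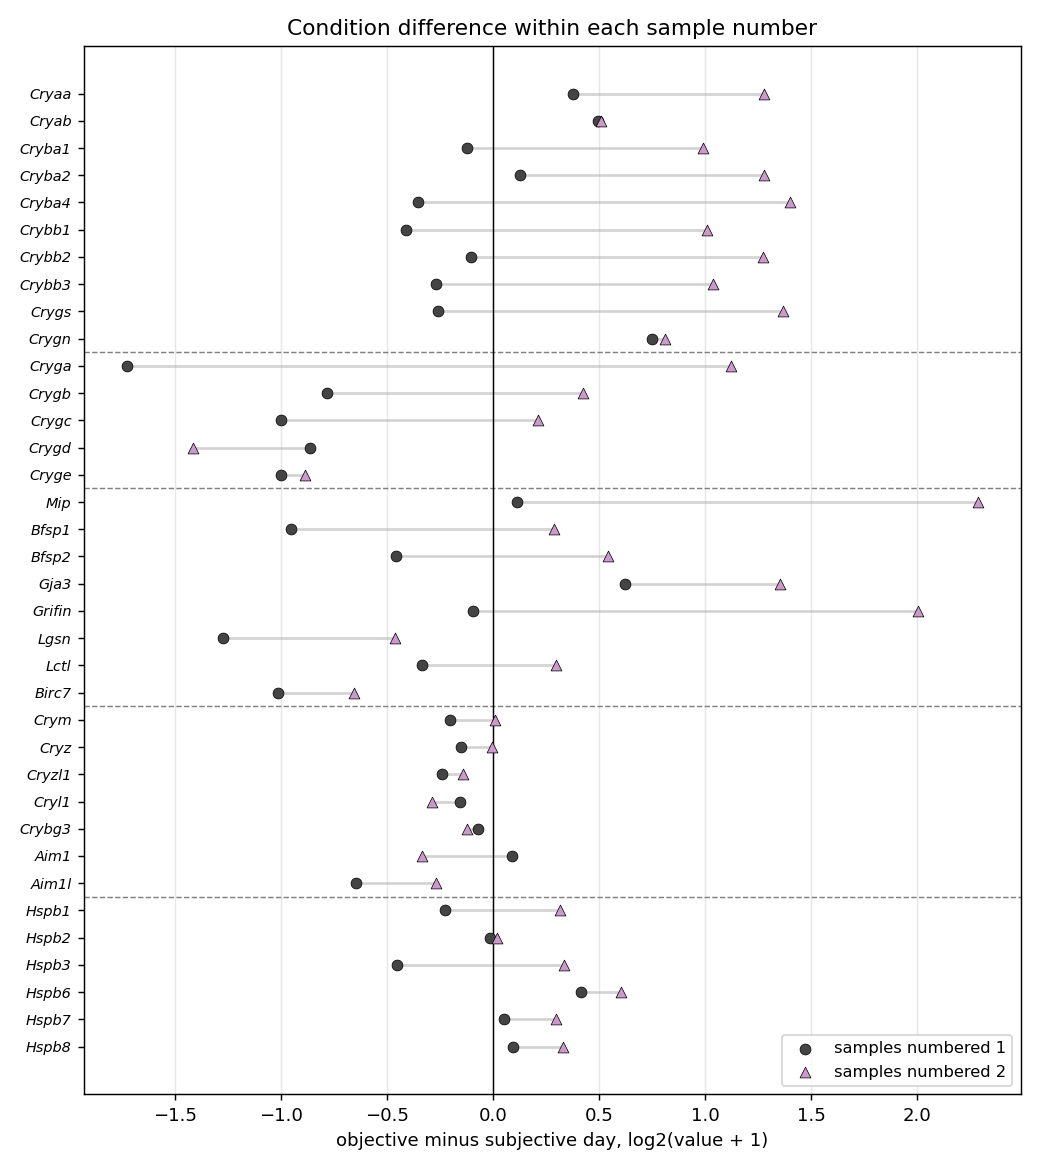
Objective minus subjective day on log2(value + 1) within the samples numbered 1 (dark circles) and within those numbered 2 (pale triangles), for the same genes and order of groups as in the plot of the number differences. All 10 crystallins are above 0 in number 2 and 4 of 10 in number 1, Cryab and Crygn give nearly the same value in both, and the lens structure genes lie on both sides of 0.

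Markers of other tissues were set beside these results. The summed value of the 5 corneal epithelium genes was 10375 and 10854 in subjective and 2965 and 5430 in objective day, lower in objective day and lower in the first objective day sample than in the second. Of these 5, Krt12 did not pass the filter, with values of 3.99 and 7.67 in subjective and 1.78 and 12.5 in objective day. Limma's test called 4 of the 4 corneal genes tested lower in objective day, the keratins Krt5, Krt14 and Krt15 and the enzyme gene Aldh3a1, with log2 differences from -1.46 to -1.12 and adjusted p from 0.00558 to 0.0210, beside 7.45% of all genes called lower. In the RPE and Müller glia lists it called 1 gene each, Rpe65, the isomerase of the visual cycle (log2 difference -0.52, SE 0.11, adjusted p = 0.0286), and the glutamate transporter gene Slc1a3 (-0.34, SE 0.059, adjusted p = 0.0166), both lower, and in the iris, rod, ganglion and amacrine cell lists it called 0, with an unadjusted p under 0.05 in 3, 1, 2 and 1 of 5 genes. With the sample number as a term 3, 3, 3 and 1 of these 5 genes passed. The samples numbered 1 were therefore not higher in corneal genes, of which 0 of 4 tested were higher in number 1 in objective day and 1 of 4 in subjective day. The 5 genes of iris and smooth muscle summed to between 5158 and 6179, the 5 Müller glia genes to between 121605 and 133082, the 5 amacrine cell genes to between 19546 and 20200 and the 5 ganglion cell genes to between 20731 and 24540. The RPE genes summed to 47948 and 41050 in subjective and 43913 and 37967 in objective day, and 4 of the 4 tested were higher in number 1, by 1.11- to 1.26-fold. None passed the test between numbers, while an unadjusted p under 0.05 was found in 4 of 4 RPE, 4 of 5 ganglion cell, 3 of 4 corneal, 2 of 5 rod, 1 of 5 Müller glia, 1 of 5 iris and 0 of 5 amacrine cell genes, and in 2673 of the 17784 genes tested. The RPE, rod, Müller glia, ganglion cell and iris lists thus had higher sums in number 1 in both conditions, by far less than the crystallins, whose sums were 65991 and 10657 in subjective and 75286 and 21439 in objective day. The 5 rod genes summed to 933769 and 828987 in subjective and 1097800 and 986966 in objective day. By contrast, the 10 lens structure genes with a row summed to 3452 and 220 in subjective and 2390 and 537 in objective day, and no defining lens marker among Mip, Bfsp1, Bfsp2 and Gja3 was at 0 in any sample. The part of these lens, corneal and RPE levels in the crystallin values was not tested.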

How the data were processed

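Polyadenylated RNA from 4 samples was sequenced on a single lane in reads of 50 bases. According to the methods of the study and the submitters' processing notes, the authors aligned reads with TopHat2 2.0.9 and Bowtie2 2.1.0 to Ensembl release 72, counted them with HTSeq and compared conditions with edgeR; a filter, a strand setting and the versions of the last tools are not given in the sources used here. The deposited values are a signal per gene and sample, with decimals and nearly equal totals. They were taken as gene counts that the authors adjusted to one total, which the sources used here do not state. Steps of 1 read could be followed over the whole range in a single sample only, and the lowest steps give a rough relative depth alone, so total read numbers are unknown, no intervals for counts are given and no count test was used. The authors' deposited log2 fold changes, log2 CPM, p-values and adjusted p-values were not used. Every column of sample values was used.

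On log2(value + 1), samples were compared in limma 3.58.1 (R 4.3.3) for genes with at least 10 in at least 2 samples, with the prior variance as a trend on mean level and Benjamini-Hochberg adjustment at 0.05 over all genes tested (two-sided). Conditions were compared without a covariate and sample numbers with condition as a term. The scale understates differences of low genes; plain folds are given only between values above 3. The method was tested on simulated data. Nothing in the labels says how separate the pools of animals were, so p-values measure the spread between these samples only. Positions, lengths, GC content and shared 50-base stretches come from GENCODE M21 on GRCm38, a later annotation than the authors', and promoters from RefSeq on GRCm38.p6.

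The members and gene lists were chosen with earlier results of these data known. A gene of the lens structure list is not reported here and was taken out of that list's counts. The text names the 10 members, the lens, chaperone and crystallin-named lists, called genes of other lists and the 10 genes nearest in pattern. Alternatives covered scaling, filter, pseudocount, replicate block, variance prior, GC content (local regression, span 0.3) and each sample left out. Figures were drawn with matplotlib 3.10.9.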

Additional observations from a re-analysis of the deposited data

How the results depend on the processing

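The log2 differences of the 10 crystallins between sample numbers ran from 0.89 to 3.86 over 130 recomputed values. Their median over the genes lay between 2.18 and 3.18 when a sample was left out. Leaving out a sample could not change their sign, since both samples numbered 1 lay above both samples numbered 2 in each gene. The genes had also been chosen with this difference known, so nothing is read from the sign. The differences between conditions fell below 0 in 18 of 140 recomputed values, each time with a sample left out, and their median then ran from -1.21 to 2.17. In the 100 of these alternatives that kept every sample, a value moved by at most 0.247. The filter, the variance prior and the replicate block leave these differences unchanged by construction, so the count out of 140 does not measure how stable their direction is. The calls moved more. For the conditions, 1514 genes were called (1325 lower), against 0 with a constant variance prior (3586 at an unadjusted p under 0.05), 211 with the GC trend removed and 674 to 2778 with a sample left out; scaled to the total without lens genes, 1207 of 1832 calls were lower. With the replicate block 3613 were called (2331 lower), none of the 1514 being lost (0 lost), and among the members Cryaa, Cryab and Crygn (3 genes) then passed. As the members had been chosen with these values known, nothing is read from their passing. Deviations of same-numbered samples correlated at 0.319 across genes, and at 0.198 without the crystallin and lens lists; the numbers are not tied to a batch. Of the other lens crystallins and lens structure genes, 0 were called between conditions. With the replicate block 3 were called (Gja3, Lgsn and Crygd), and 4 with the block and the GC trend removed. Foxe3, which met the filter with the help of the objective day samples, also passed with the block. Between numbers, 20 genes and 8 of these lens genes were called (4 of the 8 being Crygb, Crygc, Crygd and Cryge, which passed the filter through number 1 alone), against 80 and 12 with the scaling without lens genes, 349 and 14 without a filter, 381 and 12 with the GC trend removed, 36 genes at a pseudocount of 10, 2 and 2 without the condition term, and 0 and 0 with a constant prior (1681 and 12 at an unadjusted p under 0.05). With the scaling without lens genes 44 of the 80 were lower in number 1, against 1 of 20. The 12 lens genes called there, and the 12 with the GC trend removed, include genes that passed the filter through number 1 alone. With a sample left out, and no condition term, the counts ran from 10 to 21 and from 3 to 10, the lowest without the first objective day sample for all genes and without the first subjective day sample for lens genes. The cause of these moves was not tested. With 2 samples a condition, the number of samples limits every value here.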

Other observations

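Of the 20 genes that limma's test called between the sample numbers, 3 were in no list and were picked out after their values were seen. Pdap1 and Nid1 were higher in number 1, with log2 differences of 0.42 (SE 0.047, adjusted p = 0.0229) and 0.55 (SE 0.064, adjusted p = 0.0285), and Ttn, the giant sarcomere protein of striated muscle, was lower, at -0.71 (SE 0.089, adjusted p = 0.0454). These 3 calls were lost without the condition term, where 2 genes passed (Crygb and Crygc), and with a constant variance prior, where 0 passed, and that of Ttn also with median-of-ratios scaling, where 0 genes were called lower. Nid1, a basement membrane protein, had values of 1121 and 729 in subjective and 1431 and 1020 in objective day, and Ttn had values of 5931 and 11284 in subjective and 5804 and 8156 in objective day. Of the 32 genes at least 2-fold higher in number 1 in both conditions, several had passed the filter through number 1 alone. Wnt7b and Serpine3 had not, and Serpine3 had values of 172 and 80.9 in subjective and 160 and 74.1 in objective day.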
